A study of Homo sapiens with 59 samples.

Results

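Genes encoding 9 proneural and neuronal transcription factors were followed across 20 lengths of CHIR99021 exposure. They are ATOH1, NEUROG1, NEUROG2, NEUROD1, NHLH1, ONECUT1, ONECUT2, ISL1 and POU4F1, named by symbol from the 19084 genes of the expression table. The naming used no values directly, though earlier results of these data were known. The 59 RNA-seq libraries came from neural stem cells made from the human embryonic stem cell line WA09, also called H9. All cultures received 200 ng per mL FGF8b, a fibroblast growth factor, then 2 to 72 h of CHIR99021, a GSK3 inhibitor and so an activator of WNT signalling. Retinoic acid medium followed for 4 days before lysis. Exposures were 2 h apart until 24 h and 6 h apart until 72 h, with libraries labelled A1, A2 and B1 at each time. At 48 h only A1 and A2 are present, because the submitters removed B1 for its many genes without counts. No arm without CHIR99021 was analysed here, and a longer exposure also meant a longer total culture, so that exposure and age of the culture cannot be told apart. All libraries come from a single cell line, and whether A1, A2 and B1 were separate cultures is not labelled. The p-values therefore rest on a spread between libraries that may be technical only.

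Proneural factors are basic helix-loop-helix (bHLH) proteins that commit dividing neural progenitors to a neuronal fate. They bind DNA at E-boxes as dimers with ubiquitous E proteins, switch on Notch ligands and a cascade of later neuronal factors, and are held back by ID proteins and by HES and HEY repressors downstream of Notch. In the developing spinal cord and hindbrain, different proneural factors mark different dorsoventral progenitor domains, and LIM, POU and ONECUT homeodomain factors then mark classes of newborn neurons. Within the set, ATOH1, NEUROG1 and NEUROG2 act at the start of that cascade, NEUROD1 and NHLH1 follow in differentiating cells, and ONECUT1, ONECUT2, ISL1 and POU4F1 mark postmitotic neurons.

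The stretches around the transcription start sites of 4 of the genes are shown, because NEUROG2, NHLH1 and ONECUT2 had the largest differences between the longest and the shortest exposures, and because NEUROG1 is the paralog of NEUROG2 with a different course. Each runs 5′ to 3′ on the gene's own strand, from 250 bases before to 50 bases after the start site, and is taken from RefSeq on GRCh38.p14, matched by symbol. The expression values were made on hg19, a different build. All 9 genes had an entry. Capitals mark E-boxes (CANNTG, searched on both strands, which for this motif is the same letters) and, in NEUROG1 and NEUROG2, the longest runs of letters that the pair share.
NEUROG1, chr5:135535915-135536214, minus strand: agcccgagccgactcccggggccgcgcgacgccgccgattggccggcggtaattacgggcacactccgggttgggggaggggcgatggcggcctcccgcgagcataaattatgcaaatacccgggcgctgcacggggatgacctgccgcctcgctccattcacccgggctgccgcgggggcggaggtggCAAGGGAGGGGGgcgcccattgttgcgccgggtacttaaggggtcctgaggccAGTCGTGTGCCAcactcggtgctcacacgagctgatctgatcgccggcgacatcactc
NEUROG2, chr4:112516131-112516430, minus strand: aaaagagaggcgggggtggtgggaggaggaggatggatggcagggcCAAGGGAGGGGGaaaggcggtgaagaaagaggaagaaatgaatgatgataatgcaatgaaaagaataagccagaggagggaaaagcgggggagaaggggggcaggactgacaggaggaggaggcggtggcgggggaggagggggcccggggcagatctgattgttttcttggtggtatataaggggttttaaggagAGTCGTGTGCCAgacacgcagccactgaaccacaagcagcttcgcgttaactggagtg
NHLH1, chr1:160366821-160367120, plus strand: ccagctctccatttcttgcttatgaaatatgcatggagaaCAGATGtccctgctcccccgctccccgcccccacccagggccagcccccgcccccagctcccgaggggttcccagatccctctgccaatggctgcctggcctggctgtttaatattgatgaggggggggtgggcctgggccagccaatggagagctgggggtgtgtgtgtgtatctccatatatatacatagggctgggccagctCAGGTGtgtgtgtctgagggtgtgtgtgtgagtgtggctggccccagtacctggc
ONECUT2, chr18:57435124-57435423, plus strand: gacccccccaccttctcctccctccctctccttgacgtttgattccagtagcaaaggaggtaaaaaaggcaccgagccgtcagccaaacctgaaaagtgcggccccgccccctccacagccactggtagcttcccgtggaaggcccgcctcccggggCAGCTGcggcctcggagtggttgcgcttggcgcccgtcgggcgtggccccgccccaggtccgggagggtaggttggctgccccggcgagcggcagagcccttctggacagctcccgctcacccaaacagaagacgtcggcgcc
The window of NHLH1 held the E-boxes CAGATG, beginning 210 bases before the start site, and CAGGTG, beginning 5 bases before it, and that of ONECUT2 held CAGCTG at 93 bases. The windows of NEUROG1, NEUROG2 and NEUROD1 held no CANNTG. In all, 6 of the 9 windows held one, against 68.7% of all 35116 RefSeq windows of this length. The N-box CACNAG, the recognition sequence of HES proteins, was searched on both strands and was found in 5 of the 9 windows (ATOH1, NEUROG1, NEUROG2, NEUROD1 and POU4F1), against 38.0% of all windows. NEUROG1 and NEUROG2 shared AGTCGTGTGCCA, beginning 8 bases before the start site in both genes. On either strand this run was in 2 of the 35116 windows, which are those of the pair itself. The pair also shared CAAGGGAGGGGG, which begins 61 bases before the start site in NEUROG1 and 204 bases before it in NEUROG2. That run was in 8 windows. Both runs were picked as the longest that the pair share, so their counts include the pair. Among the 36 pairs of windows the longest shared run had between 8 and 12 bases, with a median of 9.5, and 3 pairs reached 12. The runs of 12 bases of NEUROD1 with ONECUT2 and of NEUROG2 with NEUROD1 were in 272 and 145 windows. A match is a description of letters, and no match says only that these letters are not in this window.

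Levels are in TPM, a unit that relates a gene's reads to its length and to the rest of the library and so allows comparison between genes. TPM keep no sequencing depth, which is therefore unknown. Libraries had 9348 to 13085 genes at a TPM of 1 or more. The following 3 libraries stood apart, B1 of 4 h, B1 of 42 h and A2 of 72 h, with at most 9924 such genes, against at least 11004 in the other 56, and 7 to 9 of the 9 factors were listed at 0 in them, against 1 to 8 (median 3) in the others. Leaving out these 3 libraries changed 1 call among the factors, that of NEUROD1 for middle against first-day, and differences without them are given beside those of the factors that use their values. The 7 markers of neural stem cells examined were each above 0 in at least 51 of 59 libraries, and their summed level ranged from 914 to 2478 TPM. In a bulk RNA sample, more cells of a type and more RNA per cell cannot be told apart.

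For tests, time points were gathered into windows: early (2 to 8 h), first-day (18 to 24 h), middle (30 to 48 h) and late (54 to 72 h), each with 12 libraries except the middle one, with 11. Differences between windows were taken between values of log2(TPM + 1), a scale on which changes of low genes come out smaller, and were tested with limma, with Benjamini-Hochberg adjustment over 15305 genes at a threshold of 0.05. Those genes reached a TPM of 1 in 3 or more libraries. Of the 9 factors 8 passed that filter. ATOH1, the factor of the most dorsal spinal cord and hindbrain progenitors, was listed at 0 in all 59 libraries and was not tested.

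The 9 factors summed to 50.9 to 81.9 TPM per late library (median 68.4), against 0 to 12.2 TPM per early library (median 7.28). The sums of the windows between lay at 15.8 to 47.2 TPM in first-day and 27.0 to 60.3 TPM in middle libraries. NEUROG2 alone held a median of 42.4% of the late sum, and NEUROG2, ONECUT2 and NHLH1 together a median of 80.8%. These shares were not particular to late libraries. The same medians were 54.0% and 76.0% in the 11 early libraries with any factor above 0. They were 21.0% and 59.4% in first-day and 29.6% and 70.6% in middle libraries. By limma's adjusted p, 5 of the 8 tested factors were higher in late than in early libraries and 0 were lower (6 higher and 0 lower at an unadjusted p under 0.05), in a comparison that called 30.1% of all genes, 14.3% as higher and 15.8% as lower. The median difference of the 8 was 1.38, against −0.04 over all genes tested. Over the whole course, 6 of the 8 changed by an F-test on a smooth curve in hours, a test that called 36.8% of all genes, and ONECUT1 and ISL1 did not pass it. These counts describe 8 genes, of which those that are high at 1 exposure alone passed the filter through that exposure.

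**Figure D1:**
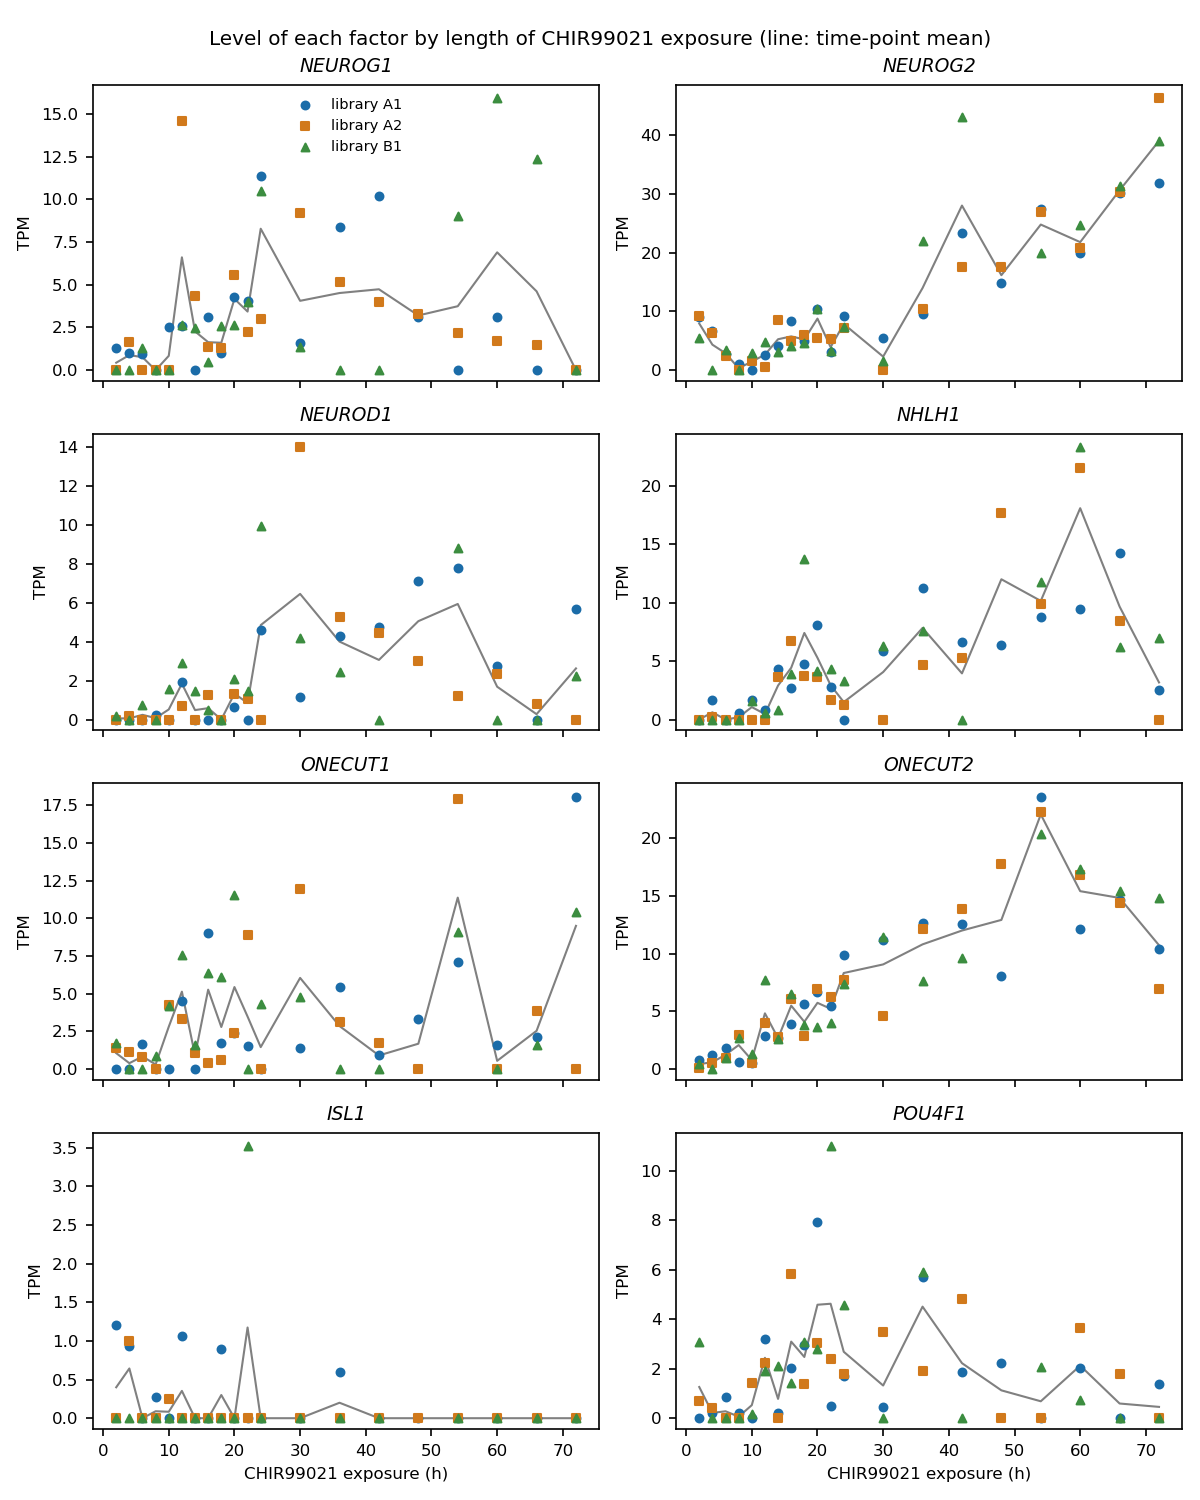
TPM of the 8 factors above 0 in any library, in each of 59 libraries, against hours of CHIR99021 exposure; symbols give the library label and the line joins time-point means, with a different vertical scale in each panel. NEUROG2 climbs to 39.0 TPM at 72 h, ONECUT2 is highest at 54 h and NHLH1 at 60 h, POU4F1 has its highest means at 20, 22 and 36 h, and ISL1 is at 0 in most libraries.

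NEUROG2, a proneural factor of many spinal cord and hindbrain progenitors, had the highest late level of the factors and the latest peak. In late libraries it was at 20.0, 28.8 and 46.3 TPM (lowest, median and highest of 12), and in early libraries at 0, 3.15 and 9.29 TPM. Every late library was above every early one, which was so for 1.06% of all genes tested. Late exceeded early by 3.03 ± 0.286 on the log2 scale (SE; limma adjusted p = 7.07e-12), and the difference was 2.76 without the 3 libraries that stood apart (adjusted p = 4.85e-12). Its course was not a steady climb. At 2 h the libraries were at 8.98, 9.29 and 5.53 TPM, at 8 h at 0.98, 0 and 0 TPM, and at 24 h at 9.19, 7.10 and 7.27 TPM. The 8 h libraries lay below the 2 h libraries with no overlap. These hours were picked for their levels, and the share of all genes with such a gap was not counted. The zeros at 8 h came from A2 and B1, which listed 8 and 7 of the 9 factors at 0. Whether these zeros reflect absence or shallow reading was not tested. The 8 h A1 library, at 0.98 TPM, listed 3 factors at 0. The 6 h libraries, at 2.81, 2.36 and 3.48 TPM, also lay below those of 2 h. The 24 h libraries lay in the range of those at 2 h. At 30 h the libraries were at 5.41, 0 and 1.51 TPM. At 42 h they were at 23.4, 17.5 and 43.1 TPM, the last of these in the B1 library that stood apart.

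The difference of NEUROG2 between first-day and early windows depended on which hours were taken. First-day libraries averaged 6.44 ± 2.52 TPM and early libraries 3.87 ± 3.42 TPM (SD, n = 12 each). The difference was 0.98 ± 0.286 on the log2 scale (SE; limma adjusted p = 0.0104), 0.74 without the 3 libraries that stood apart (adjusted p = 0.0216), and 0.17 with 22 and 24 h against 2 and 4 h (adjusted p = 0.866). It also missed the threshold without the libraries of any single label (adjusted p = 0.0509 to 0.149). Between the middle window (0, 14.8 and 43.1 TPM as lowest, median and highest) and the first-day window (3.16, 5.73 and 10.5 TPM) the difference was 0.68 (adjusted p = 0.311), and 0.59 without the libraries that stood apart (0.252). It passed with 36 and 42 h against 22 and 24 h, at 1.58 (adjusted p = 0.0429), and without the 6, 30 and 54 h time points, at 1.40 (adjusted p = 0.0102). Late exceeded middle by 1.37 ± 0.295 (SE; adjusted p = 0.00177), and by 1.42 without the libraries that stood apart (0.000165). That call was lost without label A1 (adjusted p = 0.0615), without label A2 (0.164), without 6, 30 and 54 h (0.273), with 66 and 72 h against 36 and 42 h (0.181) and with a pseudocount of 0.1 (0.0741). The highest time-point mean was that of 72 h, whose libraries, at 31.8, 46.3 and 38.9 TPM, were all above those of 66 h, at 30.2, 30.3 and 31.3 TPM. For this gap too, the share over all genes was not counted. The value of 46.3 TPM, also the highest of NEUROG2 in any library, is that of 72 h A2, which stood apart with the fewest genes.

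NEUROG1, its paralog, which acts in overlapping progenitor domains and in sensory ganglia, did not follow NEUROG2. First-day libraries were at 0.98, 3.51 and 11.4 TPM (lowest, median and highest of 12), and early libraries at 0, 0 and 1.63 TPM. NEUROG1 was above 0 in all 12 first-day libraries and in 5 of 12 early ones, and 10 first-day libraries exceeded every early one. First-day exceeded early by 1.73 ± 0.434 on the log2 scale (SE; limma adjusted p = 0.00281), by 1.63 without the libraries that stood apart (0.00315), and within each label by 1.54 (A1), 1.55 (A2) and 2.09 (B1). First-day against early called 5 of the 8 factors, all higher, where 20.0% of all genes were called, 10.5% as higher and 9.45% as lower. The comparison shares its early libraries with late against early, so that the counts of the pair are not independent.

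At longer exposures the libraries of NEUROG1 parted by label. Late libraries were at 0, 1.59 and 15.9 TPM and early libraries at 0, 0 and 1.63 TPM, a difference of 0.98 ± 0.434 on the log2 scale that missed the threshold (SE; limma adjusted p = 0.0835), as did that of 0.88 without the libraries that stood apart (0.115). The B1 libraries of 54, 60 and 66 h were at 9.06, 15.9 and 12.4 TPM, while the A1 and A2 libraries of those times were between 0 and 3.09 TPM. In the middle window the order was the other way, with A1 at 8.38 and 10.2 TPM and B1 at 0 TPM at both 36 and 42 h. The 42 h B1 library is among those that stood apart, and the other B1 library of the window, that of 30 h, was at 1.38 TPM. Late against middle was −2.02 within A1, −1.50 within A2 and 2.37 within B1, the last with 42 h B1 included. Over all labels it was −0.52 (adjusted p = 0.582), without the libraries that stood apart it was −0.76 (0.349), and without B1 it was −1.76 (adjusted p = 0.0130). At 72 h all 3 libraries were at 0, as at 8 h. The 72 h A2 library is among those that stood apart, and 8 h A2 and B1 listed 8 and 7 of the 9 factors at 0. Late against early passed without A1, at 1.62 (adjusted p = 0.0303), without the 54 h A1 library (0.0337) or the 66 h A1 library (0.0327), and with quantile normalization (0.0417). The call over the whole course (adjusted p = 0.00650) was lost without A1 (0.0951) and without A2 (0.188).

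NHLH1, a bHLH factor of cells that are leaving the cell cycle, was almost absent at short exposures. Late libraries were at 0, 9.10 and 23.3 TPM (lowest, median and highest of 12), and early libraries at 0, 0 and 1.64 TPM. All late libraries except 72 h A2, at 0, exceeded every early one, and 72 h A2 is among the 3 libraries that stood apart. Late exceeded early by 2.95 ± 0.347 on the log2 scale (SE; limma adjusted p = 2.51e-09), and by 3.08 without those 3 (adjusted p = 6.43e-11). First-day libraries, at 4.28 ± 3.60 TPM against 0.203 ± 0.484 TPM in early ones (SD, n = 12 each), were higher by 1.92 ± 0.347 (SE; adjusted p = 3.70e-05), and by 1.85 without the libraries that stood apart (6.17e-06). That call missed the threshold with 22 and 24 h against 2 and 4 h, at 1.22 (adjusted p = 0.103). Time-point means of NHLH1 (SD, n = 3 each) were 7.40 ± 5.50 TPM for 18 h, 1.49 ± 1.64 TPM for 24 h, 18.1 ± 7.54 TPM for 60 h and 3.17 ± 3.52 TPM for 72 h. The 60 h libraries, at 9.42, 21.5 and 23.3 TPM, were above all 72 h libraries, the highest of which was at 6.96 TPM. The hour of 60 h was picked for its highest mean, and the share of all genes with such a gap was not counted.

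NEUROD1, a differentiation factor that acts downstream of neurogenins, was low throughout, above 0 in 36 of 59 libraries and at most at 14.0 TPM. Late libraries were at 0, 1.71 and 8.80 TPM (lowest, median and highest of 12), and early libraries at 0, 0 and 0.720 TPM, with 8 late libraries above every early one. Late exceeded early by 1.25 ± 0.353 on the log2 scale (SE; limma adjusted p = 0.00537), and by 1.42 without the libraries that stood apart (0.000804). The call was lost without label A1 (adjusted p = 0.190), without the 6, 30 and 54 h time points (0.0769) and with 66 and 72 h against 2 and 4 h (0.250). Its highest window was the middle one, at 4.60 ± 3.67 TPM (SD, n = 11), against 1.76 ± 2.90 TPM in first-day libraries (SD, n = 12). That difference of 1.24 ± 0.364 missed the threshold (SE; adjusted p = 0.0672). It passed without the 3 libraries that stood apart, at 1.45 (adjusted p = 0.00849), or without only the 42 h B1 library (0.0185), the 24 h B1 library (0.0244), the 30 h A1 library (0.0279) or the 72 h A2 library (0.0434), without label B1 (0.0318) and with quantile normalization (0.0378). First-day against early, at 0.86 (adjusted p = 0.0820), passed without the 24 h A2 library (0.0145). The 30 h libraries of NEUROD1 ranged from 1.17 to 14.0 TPM, so the time of its highest mean rests on the A2 library.

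ONECUT2, a CUT homeodomain factor of newborn motor neurons and interneurons, was the factor detected most often. It was above 0 in 58 of 59 libraries, at 6.94, 15.1 and 23.6 TPM in late libraries (lowest, median and highest of 12) and at 0, 0.820 and 2.90 TPM in early ones. Every late library was above every early one, as for 1.06% of all genes tested. Late exceeded early by 3.08 ± 0.202 on the log2 scale (SE; limma adjusted p = 7.79e-17), by 3.07 without the libraries that stood apart (1.64e-16), and within labels by 2.93 (A1), 3.01 (A2) and 3.31 (B1). First-day libraries, at 5.84 ± 2.05 TPM against 1.07 ± 0.944 TPM in early ones (SD, n = 12 each), were higher by 1.79 ± 0.202 (SE; adjusted p = 2.52e-09) and by 1.72 without the libraries that stood apart (3.21e-09), and 11 of 12 were above every early library.

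After the first day the differences of ONECUT2 were smaller. Middle exceeded first-day by 0.83 ± 0.209 on the log2 scale (SE; limma adjusted p = 0.0222), the only call among the 8 factors in a comparison that called 1.56% of all genes, 0.451% as higher and 1.11% as lower. Without the libraries that stood apart it was 0.87 (adjusted p = 0.00888). It was lost with pseudocounts of 0.1 (adjusted p = 0.224) and 0.5 (0.0561), without any single label (0.154 to 0.383), with 36 and 42 h against 22 and 24 h (0.303), and without the 48 h A2 library (0.138), the 20 h B1 library (0.0599) or the 18 h A2 library (0.0511). Late against middle was 0.47 (adjusted p = 0.208), and 0.49 without the libraries that stood apart (0.146). In that comparison 5.57% of all genes were called, 2.86% as higher and 2.70% as lower, and NEUROG2 was the only one of the 8. ONECUT2 peaked at 54 h, where its libraries at 23.6, 22.3 and 20.4 TPM were above all libraries of every other time, the next highest being 48 h A2 at 17.8 TPM. At 72 h it was at 10.4, 6.94 and 14.8 TPM, all below the libraries of 54 h, with 6.94 TPM in the A2 library that stood apart. The hour of 54 h was picked for its highest mean, and the share of all genes with such gaps was not counted.

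ONECUT1, the other CUT homeodomain factor measured in the set, was patchy, above 0 in 42 of 59 libraries. Late libraries were at 0, 2.99 and 18.1 TPM (lowest, median and highest of 12), and early libraries at 0, 0.4 and 1.75 TPM, with 7 late libraries above every early one. Late exceeded early by 1.51 ± 0.453 on the log2 scale (SE; limma adjusted p = 0.00873), and by 1.78 without the libraries that stood apart (0.00110). The call was lost without label A1 (adjusted p = 0.177), without the 6, 30 and 54 h time points (0.134), with 66 and 72 h against 2 and 4 h (0.0694) and with 54 h against 6 h (0.0527, at a difference of 2.78). Its 54 h libraries were at 7.12, 17.9 and 9.08 TPM, and its 60 h libraries at 1.60, 0 and 0 TPM. At 72 h they were at 18.1, 0 and 10.4 TPM, the 0 being in the A2 library that stood apart. Unlike ONECUT2 it did not pass the test over the whole course (adjusted p = 0.230).

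POU4F1, also known as BRN3A, a POU homeodomain factor of sensory neurons and of some dorsal interneurons, was higher on the first day than early. First-day libraries were at 0.5, 2.88 and 10.99 TPM (lowest, median and highest of 12), and early libraries at 0, 0.0950 and 3.08 TPM. It was above 0 in all 12 first-day libraries and in 6 of 12 early ones, but only 3 first-day libraries exceeded the highest early one, 2 h B1. First-day exceeded early by 1.58 ± 0.334 on the log2 scale (SE; limma adjusted p = 0.000381), by 1.55 without the libraries that stood apart (0.000376), within labels by 1.44 (A1), 1.31 (A2) and 1.99 (B1), and missed the threshold with 22 and 24 h against 2 and 4 h (adjusted p = 0.0688). In late libraries POU4F1 averaged 0.964 ± 1.2 TPM, against 0.454 ± 0.877 TPM in early ones (SD, n = 12 each; adjusted p = 0.474, and 0.439 without the libraries that stood apart). Late against middle, where it averaged 2.40 ± 2.28 TPM (SD, n = 11), was −0.62 (adjusted p = 0.344), −0.74 without the libraries that stood apart (0.216), and −1.40 with 66 and 72 h against 36 and 42 h (adjusted p = 0.0499). The call over the whole course (adjusted p = 0.00305) was lost without label A2 (0.0543). Its highest time-point mean, that of 22 h, rests on B1 at 10.99 TPM, with A1 and A2 at 0.5 and 2.38 TPM, and the means of 20 h (4.58 ± 2.91 TPM) and 36 h (4.51 ± 2.26 TPM; SD, n = 3 each) were close to it.

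ISL1, a LIM homeodomain factor of motor neurons, some dorsal interneurons and sensory neurons, was listed above 0 in 9 of 59 libraries. Of these 4 were early, 2 were of 10 to 16 h, 2 were first-day and 1 was in the middle window, and all 12 late libraries were at 0. The highest was 22 h B1 at 3.52 TPM, the library in which POU4F1 was also highest, at 10.99 TPM. ISL1 passed no test between windows (limma adjusted p = 0.224 to 0.945) nor over the course (0.408).

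**Figure D2:**
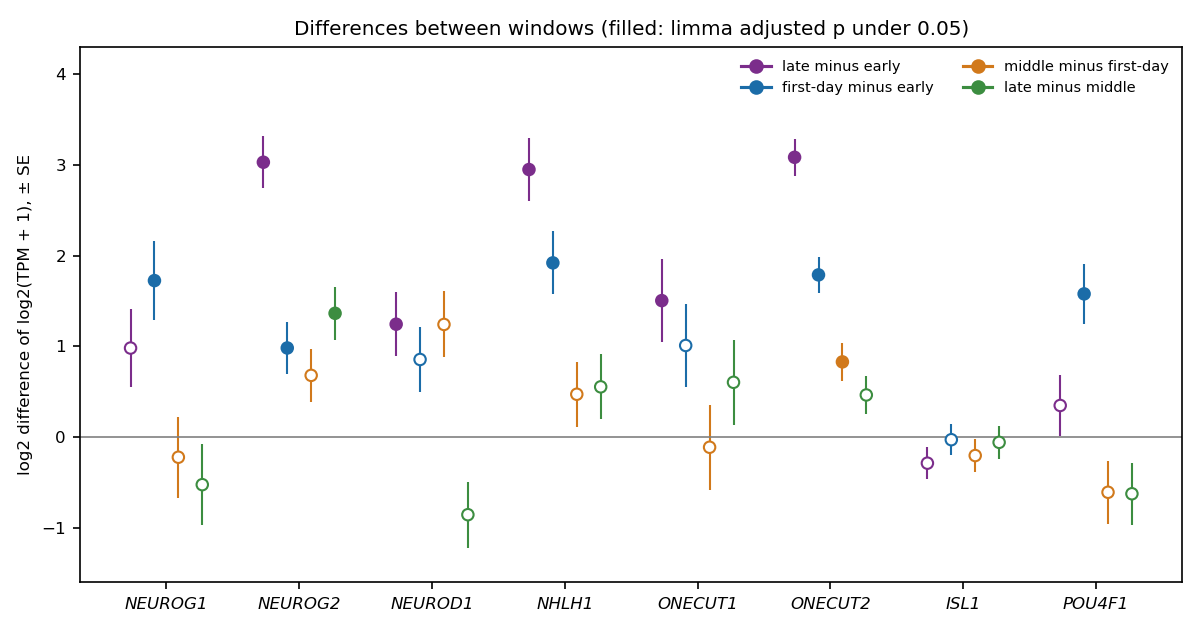
Differences between windows for the 8 tested factors, late (54 to 72 h), first-day (18 to 24 h), middle (30 to 48 h) and early (2 to 8 h), on the log2(TPM + 1) scale with SE bars; filled points have a limma adjusted p under 0.05. NEUROG2, NHLH1 and ONECUT2 stand near 3 for late minus early, while NEUROG1 and POU4F1 are called only for first-day minus early.

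The plot of differences between windows sets the factors side by side. NEUROG2, NHLH1 and ONECUT2 had late-minus-early differences near 3 and were called for first-day minus early as well. NEUROD1 and ONECUT1 were called for late minus early but not for first-day minus early, and NEUROG1 and POU4F1 the other way round, although these pairs of calls were not tested against each other. In late libraries the order by mean was NEUROG2 (29.0 ± 7.80 TPM), ONECUT2 (15.8 ± 4.79), NHLH1 (10.3 ± 6.82), ONECUT1 (5.98 ± 6.64), NEUROG1 (3.82 ± 5.51), NEUROD1 (2.63 ± 3.12) and POU4F1 (0.964 ± 1.2; SD, n = 12 each), with ISL1 and ATOH1 at 0. From ONECUT2 downward, each differed from the next by less than the larger of their SDs. In early libraries NEUROG2 was first at 3.87 ± 3.42 TPM, and the others averaged at most 1.07 TPM.

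The factors also differed in when they reached 50% of their highest time-point mean, by linear interpolation for those with a highest mean of at least 2 TPM. The first crossings were at 11.1 h for NEUROG1, 11.9 h for POU4F1, 23.2 h for NEUROD1, 29.5 h for ONECUT1, 37.2 h for ONECUT2, 38.4 h for NEUROG2 and 45.8 h for NHLH1. Taken within each label and averaged (SD, n = 3), they were 18.9 ± 6.84 h, 18.0 ± 2.85 h, 24.5 ± 2.20 h, 36.0 ± 29.6 h, 32.0 ± 3.59 h, 42.1 ± 8.36 h and 27.2 ± 15.1 h in the same order of genes. The SD between labels was under 4 h for POU4F1, NEUROD1 and ONECUT2 only, and NHLH1 and ONECUT1 cannot be placed. The early crossing of NEUROG1 came from the 12 h A2 library at 14.6 TPM, where A1 and B1 were at 2.59 and 2.63 TPM.

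**Figure D3:**
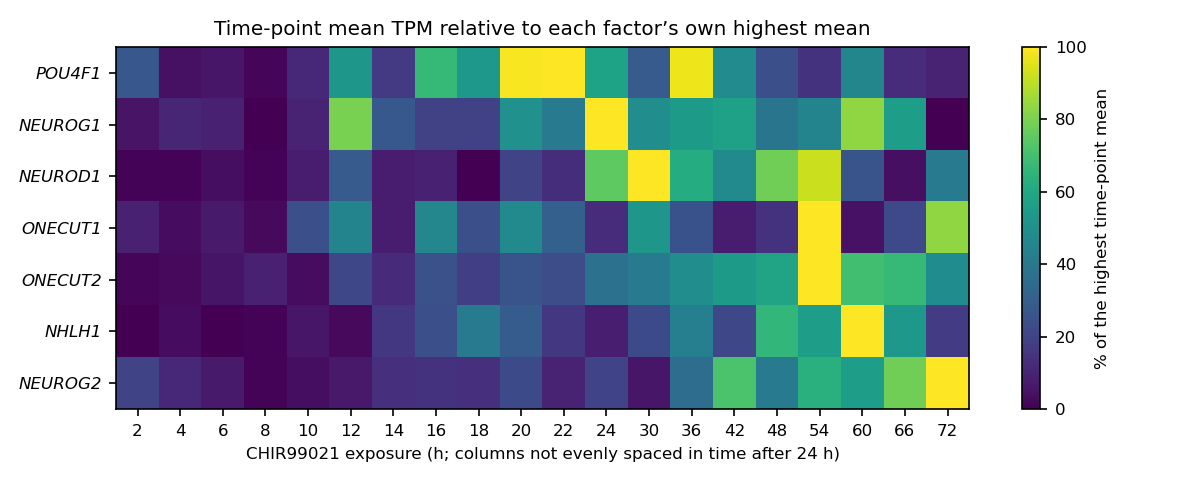
Time-point mean TPM of 7 factors as a percentage of each factor's own highest mean, by hours of exposure, with factors ordered by the hour of that mean. Reading down, the brightest column moves from 22 h for POU4F1, where it rests on 1 library, and 24 h for NEUROG1 to 54 h for the ONECUT genes, 60 h for NHLH1 and 72 h for NEUROG2.

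The heat map of time-point means shows the same factors on a common scale. At 72 h, where NEUROG2 was at its highest, NEUROG1 was at 0 in all 3 libraries, and NHLH1 and ONECUT2 were below their own means of 54, 60 and 66 h. The 72 h means include the A2 library that stood apart with the fewest genes. At 30 h, NEUROG2 was below its mean of 24 h (2.31 ± 2.79 TPM, against 7.85 ± 1.16 TPM; SD, n = 3 each).

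How far the factors varied together was described by Pearson's r of log2(TPM + 1) over the 28 pairs, with no test. Libraries of the same time share an exposure, and all factors of a library share its depth and its zeros. Over 59 libraries r ran from −0.249 to 0.721, with a median of 0.221. The highest was between NHLH1 and ONECUT2 (0.721, and 0.413 for deviations from the time-point means). Over the 20 time-point means this pair was again highest (0.796), followed by NEUROD1 with ONECUT2 (0.727) and NEUROG2 with ONECUT2 (0.716). NEUROG1 and NEUROG2 had an r of 0.0831 over libraries, of 0.237 over time-point means and of −0.241 for deviations from the time-point means. Among deviations the highest r was that of NEUROD1 with POU4F1, at 0.543.

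The genes most alike each factor in their 20 time-point means, among tested genes with a highest mean of at least 5 TPM, differed from factor to factor. They are the 3 highest of 13137 candidates per factor (13138 for POU4F1). A search that wide returns high values in part by itself, and no r was tested. For NEUROG2 they were EPB41L4A (r = 0.956), SLIT1, which encodes an axon guidance ligand (0.939), and SPATA13 (0.919). For ONECUT2 they were the forkhead gene FOXP4 (0.956), the neural POU factor POU3F2 (0.949) and the neuronal RNA-binding protein gene ELAVL3 (0.946). For NHLH1 they were the zinc-finger gene ST18 (0.916), the Notch pathway gene DLL3 (0.883) and ELAVL4, another neuronal RNA-binding protein gene (0.869). For NEUROD1 they were DPYSL5 (0.860), the reelin adaptor DAB1 (0.854) and the Notch ligand DLL4 (0.825), and for POU4F1 they were PTPRO (0.856), NDNF (0.831) and MARK1 (0.809). For NEUROG1 they were RNF157, JAM3 and EFCAB4B (0.810 to 0.874). For ONECUT1 they were ZFR, DAXX and SEC24C (0.765 to 0.777), the lowest values among the 7 factors.

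The other genes of the pathway are given from lists drawn up with earlier results of these data known, so their counts are not those of blind lists. Of 11 other proneural and neuronal bHLH genes, 7 were tested, and 5 were higher and 0 lower in late than in early libraries, also at an unadjusted p under 0.05, with a median difference of 1.62. NEUROD4, a relative of NEUROD1, averaged 12.8 ± 4.60 TPM in late libraries and 0.283 ± 0.562 TPM in early ones (SD, n = 12 each), a difference of 3.46 on the log2 scale (limma adjusted p = 2.02e-14). NHLH2, the paralog of NHLH1, was higher by 2.05 (adjusted p = 1.03e-05) and BHLHE22 by 1.62 (0.000203). NEUROG3, NEUROD6 and BHLHE23 were at 0 in all 59 libraries, like ATOH1. The E proteins, with which the bHLH factors dimerize, were abundant at every time, their sum lying at 208 to 407 TPM in late and 190 to 395 TPM in early libraries, and 1 of 3, TCF4, was higher, by 0.29 (adjusted p = 0.0245).

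Antagonists went both ways. Of 11 ID, HES and HEY genes, all tested, 4 were higher and 5 were lower in late than in early libraries, with a median of −0.07. The HES repressor genes HES5 and HES4 were higher by 2.55 (limma adjusted p = 7.00e-07) and 2.29 (6.37e-05), while HES3 fell by 2.09 (0.00458) and ID1 fell by 1.53 (0.00724). Of 10 Notch ligand and cell cycle exit genes 5 were higher and 0 lower, again also without adjustment, with a median of 0.83. DLL3 was at 21.9 ± 9.86 TPM in late and 2.23 ± 2.11 TPM in early libraries (SD, n = 12 each), a difference of 2.84 (adjusted p = 3.09e-08), and HES6, which counters HES1, was higher by 2.61 (1.18e-06). DLL1, a Notch ligand and a textbook target of neurogenins, was at 35.6 ± 18.4 TPM in late and 48.4 ± 29.1 TPM in early libraries, a difference of −0.61 (adjusted p = 0.138).

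Of 39 other neuronal transcription factors 23 were tested, of which 9 were higher and 4 lower in late than in early libraries, with a median of 0.22. EBF3 and INSM1, factors of newborn neurons, were higher by 3.06 (limma adjusted p = 2.91e-09) and 2.85 (7.50e-07), while GATA3 fell by 2.53 (1.25e-07) and LMX1B fell by 2.24 (4.44e-06). Of 22 neuron differentiation genes 15 were higher and 1 lower, with a median of 1.55. STMN2, a microtubule regulator of growing neurites, was at 63.6 ± 23.2 TPM in late and 2.85 ± 2.41 TPM in early libraries (SD, n = 12 each), a difference of 4.28 (adjusted p = 2.55e-17), and TAGLN3 was higher by 3.70 (4.33e-09). TUBB3, the neuronal tubulin, was at 134 ± 30.9 TPM in late and 154 ± 64.2 TPM in early libraries (adjusted p = 0.682).

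**Figure D4:**
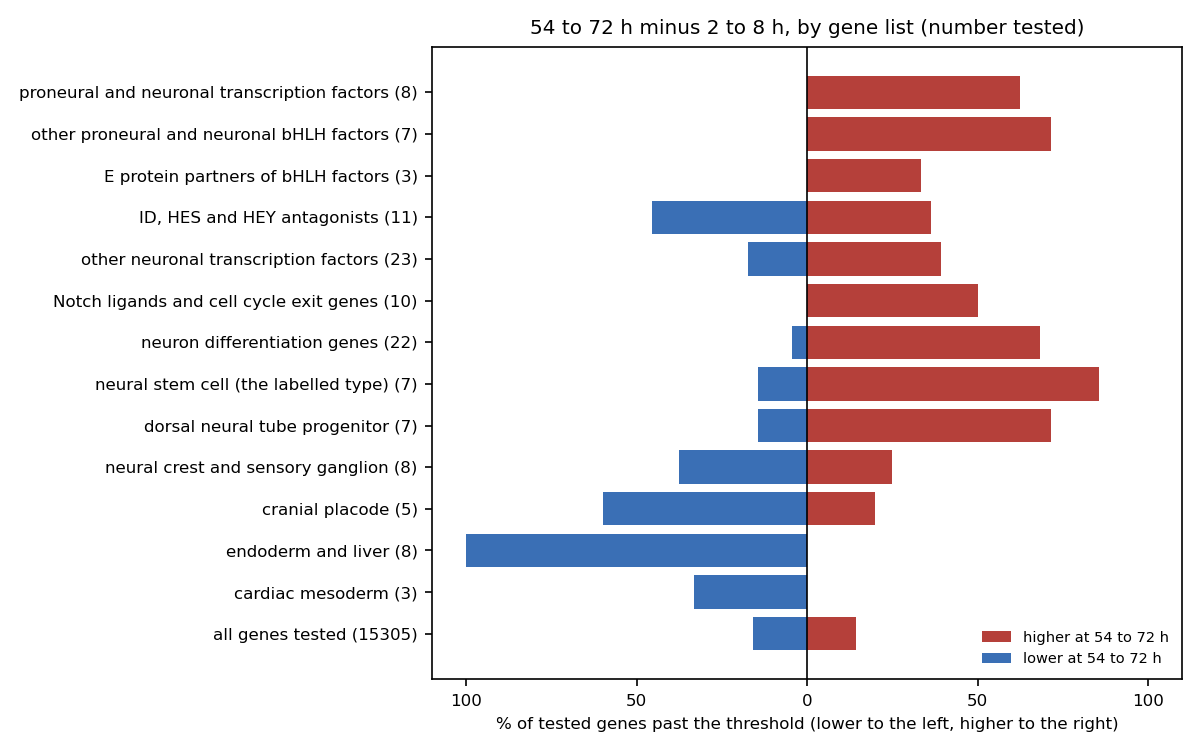
Percentage of the tested genes of each list that were higher (right) or lower (left) at 54 to 72 h than at 2 to 8 h by limma's adjusted p, with the number tested in brackets; bars start at 0, and lists with under 3 tested genes are not drawn. The tested factors, the other bHLH genes, the E proteins and the Notch ligand and cell cycle exit genes are called only as higher. Antagonists go both ways, and all 8 endoderm and liver genes tested are lower.

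Markers of other cell types moved with the same windows, and their part in the results was not tested. Of 7 tested dorsal neural tube progenitor genes 5 were higher and 1 lower in late than in early libraries, the list summing to 312 to 796 TPM in late and 204 to 645 TPM in early ones, with GSX1 at 0 throughout. GDF7 and WNT1 of the roof plate were higher by 3.59 (limma adjusted p = 4.29e-10) and 3.21 (2.07e-09), and OLIG3 of the dorsal progenitors was lower by 2.42 (1.35e-07). The course of OLIG3 was not a steady fall. It averaged 185 ± 91.1 TPM in early, 11.4 ± 14.4 TPM in middle and 42.7 ± 35.2 TPM in late libraries (SD). Late exceeded middle by 2.30 (limma adjusted p = 6.37e-06). Among neural stem cell markers 6 of 7 were higher and PAX6 was lower, the list summing to 1521 to 2275 TPM in late and 914 to 1426 TPM in early libraries. Of 8 tested neural crest and sensory ganglion genes 2 were higher and 3 lower, with sums of 17.1 to 153 TPM in late and 57.4 to 261 TPM in early libraries. TFAP2A was at 0.298 ± 0.603 TPM in late and 79.4 ± 73.7 TPM in early libraries (SD, n = 12 each), and SOX10, the defining neural crest factor, was above 0 in 5 of 59 libraries and at most at 3.15 TPM. Of 5 tested placode genes 1 was higher and 3 were lower, the list summing to 9.15 to 20.9 TPM in late and 44.1 to 157 TPM in early libraries.

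All 8 tested endoderm and liver genes were lower in late than in early libraries. The list summed to 46.8 to 145 TPM in late and 208 to 642 TPM in early libraries, with SOX17 at 0 in every library. Cardiac genes summed to at most 12.7 TPM in late and 11.8 TPM in early libraries, with 1 of 3 tested genes, GATA4, lower and HAND2 at 0 throughout. Of the retinal genes only CRX was tested and did not pass (adjusted p = 0.291), with SIX3 and SIX6 at 0 throughout and sums of at most 33.9 TPM in late and 3.64 TPM in early libraries.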

How the data were processed

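Messenger RNA was measured in 59 libraries. Per the labels' protocols, 100 ng of total RNA gave oligo-dT selected libraries amplified in 18 PCR cycles and read as single 51 bp reads, 30 libraries to a lane. The deposited table gives TPM of 19084 genes by symbol, which the authors made with CASAVA 1.8.2, Bowtie 0.12.8 and RSEM 1.2.3 on hg19, per the submitters' processing notes. No annotation is named in the sources used here. RSEM apportions reads of near-identical genes by estimation. TPM keep no depth, so no intervals or detection limits were computed. None of 8 housekeeping genes was at 0 in any library.

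The values were analysed as log2(TPM + 1) with limma 3.58.1 in R 4.3.3 (intensity trend, Benjamini-Hochberg over 15305 genes that reached a TPM of 1 in 3 or more libraries). The course was tested by the F statistic of a natural spline in hours (4 df). Window contrasts used a model with 20 time-point means and 39 residual df. Groups and labels were taken from the sample titles. The tests were tried on simulated data. Promoter letters were read from RefSeq GRCh38.p14, and no protein sequences were used here. Python 3.11.15 with matplotlib 3.10.9 drew the figures.

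The factors, the gene lists, the windows and the rule for named genes were chosen with earlier results of these data known. That rule names all 9 factors, per list up to 4 genes (the 2 highest and 2 lowest late-minus-early differences among those called) and any gene needed to read a count, and the 3 most alike genes per factor. DLL1, TUBB3, SOX10, PAX6, TCF4, GATA4, CRX and genes at or near 0 were named to read their lists' counts. Alternatives varied the pseudocount, filter, scaling, spline, windows and a replicate block, and left out labels, libraries and time points. Some list genes are not reported here by name.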

Additional observations from a re-analysis of the deposited data

How the results depend on the processing

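The counts of factors called were 6 over the course, 5 for late minus early, 5 for first-day minus early, 1 for middle minus first-day and 1 for late minus middle. Middle minus first-day gave 0 with pseudocounts of 0.1 and 0.5, and 2 with quantile normalization, without the 3 libraries that stood apart, and without the 6, 30 and 54 h time points. Late minus middle gave 0 with a pseudocount of 0.1 and without those time points. Late minus early gave 3 without those time points and 3 with 66 and 72 h against 2 and 4 h, and first-day minus early gave 2 with 22 and 24 h against 2 and 4 h. Leaving out each label in turn gave 4 to 6 over the course, 4 to 5 for late minus early, 4 for first-day minus early, 0 to 1 for middle minus first-day and 0 to 2 for late minus middle. Leaving out each of the 59 libraries in turn, an alternative added after seeing the data, gave 6, 5 to 6, 5 to 6, 0 to 2 and 1 for the same comparisons in that order. NEUROG2, NHLH1 and ONECUT2 stayed called for late minus early in every one of these, with differences of 2.61 to 4.05, 2.20 to 5.34 and 2.97 to 4.24 over the settings other than single left-out libraries. The cause of the changed counts was not tested. Of the factors' single values in the planned settings, 483 stayed on the same side of the threshold, 26 lost a call and 9 gained one. In the added setting of 54 h against 6 h, 7 stayed and 1, that of ONECUT1, lost its call. Differences that were not called could change sign. Late minus early of POU4F1, for example, was 0.35 in the main setting and −0.14 at its lowest.

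Over all genes, the number called moved by more than 1.5 times from 5629 over the course to 3232 without A1 and 3573 without A2, and for late minus early from 4606 to 2956 without A1 and 1063 for 54 h against 6 h. For first-day minus early it moved from 3057 to 1594 without A1, 2014 without A2 and 1802 with 22 and 24 h against 2 and 4 h. For middle minus first-day it moved from 239 to between 82 and 466, and for late minus middle from 852 to between 328 and 1494. The labels were not taken as pairing the libraries, since the correlation of same-label deviations between windows ran from −0.06 to 0.12. With the replicate block the counts of factors called were 6, 5, 5, 1 and 1 in the order above, unchanged. Depth is unknown, so whether a 0 in TPM reflects absence or shallow reading was not tested.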
